A study of Mus musculus with 2 samples.

Results

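The array carried 16181 probes whose names give a genomic interval and a strand letter, F or R, rather than a transcript. These are interval probes, the part of the design aimed at long noncoding RNA from between annotated genes. They were chosen by name alone, as every non-control probe named by a chromosome, a start, an end and a strand letter on mouse build mm9, and they made up 29.1% of the 55678 non-control probes with a value on both arrays. They covered 3540 intervals on chromosomes 1 to 19 and X.

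Macrophages were grown from femoral marrow of male mice that were wild type at the calpain-6 locus (Capn6-Wt) or lacked calpain-6 (Capn6-Ko). Both cultures received M-CSF at 50 ng/mL, the growth factor that drives marrow cells to become macrophages, together with TNF-α at 10 ng/mL, an inflammatory cytokine, in medium with 10% serum. The labels put the cells at day 4 in one field and day 3 in another, identically for both groups. Cells of 4 mice were pooled, and the labels leave it unclear whether that is 4 per genotype or 4 in all. Each group was hybridised to 1 array, so no value below has a replicate of its condition and no p-value is given. The ± beside a single probe is the spot-to-spot standard deviation expected for a difference at that signal, taken from 263 probes spotted 5 times or more on each array. It covers spotting and scanning, not cultures or animals. The ± beside an interval mean is the standard deviation over its n probes.

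Long intergenic noncoding RNAs are transcripts without a protein-coding frame that arise outside known genes. Many were first recognised from stretches of chromatin that carry histone marks of active promoters and of elongating polymerase, which show that a region is transcribed but not from which strand. Arrays therefore often place probes on both strands of such a region. As a class these transcripts are known to be scarcer and more restricted to particular cell types than messenger RNA. Some act in the nucleus on chromatin or splicing, and several are known to take part in inflammatory gene control in macrophages.

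Detection here rests on the scanner software's call that a spot is well above background, and the level is its processed signal, in arbitrary fluorescence units. A probe that was well above background on both arrays is called measured. For differences the signal was put on a log2 scale and set against the 75th percentile of each array. Not given in the sources used here is which genomic strand F and R stand for, and no mm9 gene annotation was used to place the intervals relative to genes. The intervals ranged from 62 to 7128487 bases in length with a median of 7315.5 bases, and only 1 exceeded 1000000 bases. Many lay over one another. Of the 3540 intervals 2101 overlapped another, and joining overlapping ones left 2223 separate loci, so neither probes nor intervals are independent observations. Each probe had 1 spot, and no interval spot was saturated or carried an outlier mark.

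The cultures had the markers of macrophages. All 11 macrophage genes with a probe were measured, with signals from 1459 to 167573 on the Capn6-Wt array and a median difference of 0.19 (log2, Capn6-Ko minus Capn6-Wt, as throughout). Stromal and smooth muscle markers were also present. Of those 10 genes 9 were measured and 8 were lower in Capn6-Ko, with a median difference of -0.53. Of the neutrophil, endothelial, lymphocyte and erythroid markers with a probe, 4 of 4, 2 of 3, 2 of 5 and 1 of 3 were measured. Capn6 itself, with 1 probe, was not well above background on either array (signal 3.93 in Capn6-Wt and 8.65 in Capn6-Ko), so its probe does not check the genotype labels.

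The first question was how many of these regions gave RNA in macrophages. About 1 interval probe in 3 was measured. Of 16181 probes 5563 (34.4%) were well above background for Capn6-Wt, 5812 (35.9%) for Capn6-Ko and 5237 (32.4%) for both. Among probes for messenger RNA, named by an NM_ accession, 62.8% of 26533 were measured on both arrays, and among those for annotated noncoding transcripts, named by an NR_ accession, 38.2% of 1216. The interval probes thus lay nearer to the annotated noncoding probes in this share than to the messenger probes. The lowest signal of a spot called well above background was 16.6 for Capn6-Wt and 14.0 for Capn6-Ko, though some spots above these were not called. The 308 negative control spots had medians of 3.87 and 3.36. More interval probes passed on the Capn6-Ko array alone (575) than on the Capn6-Wt array alone (326). The same lean held over all probes (1412 against 785) and over NM_ probes (489 against 271). The lowest signal called well above background was smaller on the Capn6-Ko array, and its part in this lean was not tested.

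Detection was patchy within an interval. At least 1 measured probe was found in 2079 of the 3540 intervals (58.7%). An interval strand, meaning all probes for one strand of one interval, held 1 to 10 probes with a median of 3. Among the 3382 interval strands with 3 probes or more, 1351 (39.9%) had no measured probe, 426 (12.6%) had every probe measured, and 1605 (47.5%) had some measured and some not. The commonest design, 3 probes on a strand, gave 889 strands with 0 measured, 444 with 1, 180 with 2 and 296 with 3. Strands with all 3 measured were thus commoner than strands with 2. On the 147 strands with 10 probes, 8 had all 10 measured and 18 had none, with the rest spread between.

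Interval RNA was dim where it was found. For Capn6-Wt the median signal of the measured interval probes was 70.1, for Capn6-Ko 69.0. The measured NM_ probes had medians of 675 and 663, and the measured NR_ probes 144 and 140. On the Capn6-Wt array the middle range of the measured interval probes ran from 35.9 at the lower quartile to 205 at the upper. Only 422 of them (8.06%) had a signal of at least 1000 on both arrays, against 7024 (42.2%) of the NM_ probes, and 75 (1.43%) reached 10000, against 1615 (9.70%). Signals of different probes depend on probe sequence as well as on RNA, so these are distributions over many probes and not levels of single transcripts.

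**Figure D1:**
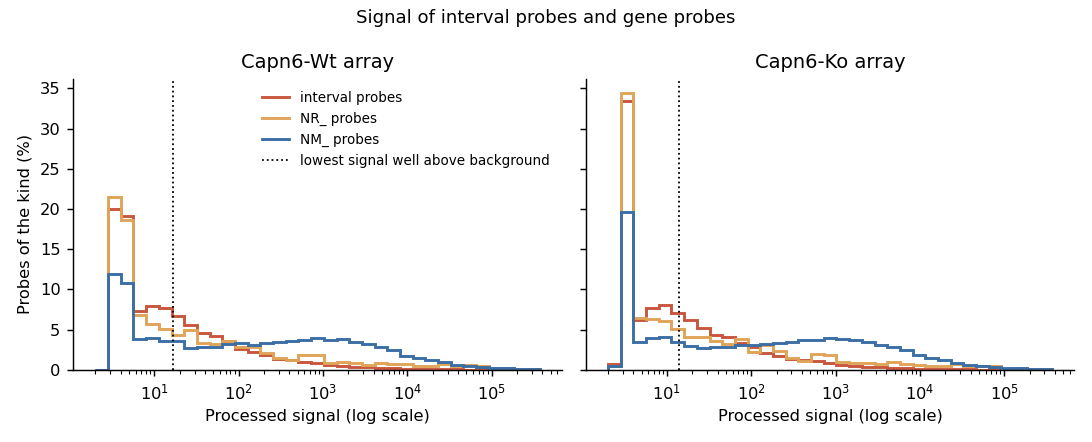
Share of probes of each kind (vertical axis, percent) in steps of processed signal (horizontal axis, log scale) on the Capn6-Wt and Capn6-Ko arrays; the dotted line is the lowest signal well above background. Most interval and NR_ probes lie left of the line on both arrays, where the NM_ probes have a broad second hump around a signal of 1000.

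A few interval probes were far brighter than most. The brightest lay in chr8:48476637-48492537 on the F strand, at 217379 in Capn6-Wt and 220394 in Capn6-Ko. Of the other 4 F probes of that interval 1 was measured, at 42.7 and 49.8, and none of its 5 R probes was. A single probe thus carried nearly all of that interval's signal.

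In contrast, the next brightest interval was bright throughout. The 3 R probes of chr19:5801802-5802597, an interval of 796 bases, gave 22785 to 127999 in Capn6-Wt and 24842 to 134196 in Capn6-Ko, with a mean difference of 0.12 ± 0.03 (n = 3). Just beside it, the 3 R probes of chr19:5798135-5800557 reached medians of 14865 (Capn6-Wt) and 15906 (Capn6-Ko). The much longer interval around both, chr19:5771425-5848475, had all 10 F probes measured, but at a median of 136 and 135. Its R strand had 1 of 2 probes measured, at 937 and 801. Farther along, the 3 R probes of chr19:5834117-5835940 had medians of 316 and 338. The highest signals in this stretch of chromosome 19 thus lay on the R probes of chr19:5801802-5802597 and chr19:5798135-5800557. The 3 R probes of chr17:17481706-17482457, 752 bases long, were the only other set of 3 among the brightest, at 42146 to 122941 in Capn6-Wt and 42690 to 119459 in Capn6-Ko, with a mean difference of 0.02 ± 0.04 (n = 3).

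The remaining 5 of the 8 brightest probes lay on chromosomes 6, 7, 11 and 14. They were in chr14:78924115-78938125 (F, 116346 in Capn6-Wt and 119469 in Capn6-Ko), chr11:22681800-22707775 (R, 109908 and 112551), chr7:108209996-108216032 (R, 83244 and 88257), chr6:83368261-83407280 (F, 79285 and 83524) and chr6:116092274-116144199 (F, 77127 and 82972). None of the 8 brightest differed between the arrays by more than 0.12 on the log2 scale, against a spot error of 0.083 at this signal. Within chr6:83368261-83407280 the 5 F probes ran from 25.6 to 79285 in Capn6-Wt, so the probes of a single interval strand lay at opposite ends of the signal range.

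The second question was strand. Both strands carried probes in 1067 intervals, while 1251 had F probes only and 1222 R probes only. Counting a strand as detected when any of its probes was measured, 482 of the 1067 (45.2%) had both strands detected, 196 (18.4%) F only, 213 (19.96%) R only and 176 (16.5%) neither. One strand alone was thus detected in 409 intervals (38.3%), about evenly between F and R. Over all interval probes 30.6% of 8171 F probes and 34.2% of 8010 R probes were measured. Where F and R had the same number of probes, 596 intervals, the counts were 250 with both strands, 106 F only, 123 R only and 117 neither.

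The strand pattern was the same on the 2 arrays for most intervals. On the Capn6-Wt array alone 529 had both strands, 184 F only, 193 R only and 161 neither, and on the Capn6-Ko array 532, 184, 206 and 145. The state was identical on both arrays in 937 intervals and changed in 130, and in 0 did F only on one array become R only on the other. When a strand had to have most of its probes measured, 104 intervals had both strands, 143 F only, 201 R only and 619 neither, so a single strand (344 intervals) was then commoner than both.

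**Figure D2:**
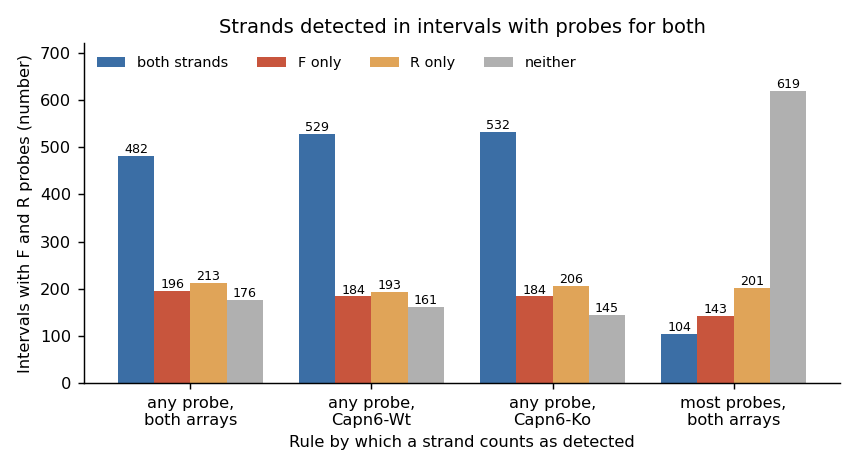
Number of the 1067 intervals with F and R probes (vertical axis) that had both strands, F only, R only or neither detected, for 4 rules of detection (horizontal axis). Both strands lead where any measured probe is enough (482, 529 and 532), and 619 have neither where most probes of a strand must be measured.

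Intervals in which one strand lit completely and the other not at all show the bias most clearly. Of 748 intervals with at least 3 probes on each strand, 24 had every R probe and no F probe measured, 9 had every F probe and no R probe, 9 had every probe of both strands and 92 had none. In chr15:68161768-68193518 the 5 R probes gave 403 to 824 in Capn6-Wt and 448 to 826 in Capn6-Ko, while the 5 F probes stayed at 3.82 to 19.2 and 3.297 to 11.7. The highest F signal was thus far below the lowest R signal on either array. The interval's mean R difference was 0.08 ± 0.08 (n = 5), close to the spread of its probes.

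Several other intervals showed the same separation. In chr1:182180931-182186106 the 5 R probes gave 115 to 766 in Capn6-Wt and the 5 F probes 3.39 to 7.54. In chr2:84344350-84370075 the 5 R probes gave 224 to 459 in Capn6-Wt and 227 to 567 in Capn6-Ko, where the F probes reached 14.0 and 12.3. For F, the clearest case with a bright probe was chr3:87757295-87774970, whose 5 F probes spanned 33.3 to 33552 in Capn6-Wt against 3.68 to 11.5 for its 5 R probes. These 4 intervals were picked after their values were seen. They came from intervals required to have every probe of one strand measured and none of the other. Part of the separation was thus set by that rule. In chr16:89961600-89971725, from the same set, the lowest R probe gave 17.3 and the highest F probe 14.4 in Capn6-Ko.

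Some intervals were bright on both strands. The interval with the highest level on its dimmer strand was chr17:39960567-39992817, in which all 4 F probes (3536 to 26705 in Capn6-Wt) and all 5 R probes (2439 to 8318) were measured. Their mean differences were -0.04 ± 0.05 (n = 4) for F and -0.02 ± 0.05 (n = 5) for R. In chr12:119825125-119850750 the single F probe gave 37897 in Capn6-Wt and 37000 in Capn6-Ko and the single R probe 1637 and 1591. In chr7:108209996-108216032 the bright R probe faced 2 F probes at 580 and 2576 in Capn6-Wt.

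The rest of the 6 intervals with the highest level on the dimmer strand leaned on single probes. The interval chr11:19778600-19815950 had 1 probe a strand, at 780 for F and 846 for R in Capn6-Wt, nearly alike. In chr15:51829797-51844247, 1 of 3 F probes (731) and 1 of 3 R probes (3524) was measured. In chr12:73838608-73862621, 2 of 5 F probes (151 and 39188) and 3 of 5 R probes (47.7, 106 and 76278) were measured.

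Probes for the same strand of an interval went together in level, and probes for opposite strands did not. Over 2199 pairs of probes on the same strand, both in the brighter part of the measured interval probes, the Pearson correlation of their levels was 0.59. Over 989 pairs on opposite strands of one interval it was -0.015. Over 3230 pairs of probes for one NM_ transcript it was 0.47. The pairs share arrays, and a probe can enter several pairs, so these values are descriptions.

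The study's contrast was calpain-6 deficiency. Interval RNA as a whole was level between the genotypes. The median difference over the 5237 measured interval probes was 0.0079, with a standard deviation over probes of 0.25 and a range of -1.69 to 1.62. In Capn6-Ko 2707 probes were higher and 2530 lower. The sign of so small a median is set by the scaling, which is the same for every probe of an array. It was -0.0058 against the 75th percentile of detected probes and 0.073 against the array median.

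Few interval probes differed 2-fold. At least 2-fold higher in Capn6-Ko was 1 interval probe (0.0191% of the 5237) and at least 2-fold lower were 9 (0.172%). Among the 27471 measured probes of any kind, 0.0291% passed 2-fold upward and 0.102% downward. A smaller limit of 0.3 on the log2 scale, about 1.23-fold and set after the values were seen, was passed by 411 interval probes (7.85%) that were higher and 566 (10.8%) that were lower, against 4.6% and 7.12% of all measured probes. Of those past 0.3, 42.1% were higher, and this share became 53.5% with quantile normalization and 62.3% with each array centred on its median, so the balance of the directions moved with the scaling. With a normexp background correction and an offset of 50, a choice made after the data were seen, 0 interval probes reached 2-fold, and 36 were higher and 40 lower by 0.3 or more.

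The larger share past 0.3 went with low signal. The measured probes of all kinds were put into 4 level classes of equal size. The dimmest class held 50.4% of the measured interval probes and 15.4% of the measured NM_ probes. Within it 30.5% of the interval probes were past 0.3, against 31.5% of all probes. In the other classes, from dim to bright, the shares were 9.59%, 2.12% and 0.760% for the interval probes and 11.1%, 3.19% and 1.12% for all probes. In each level class, then, the share of interval probes past 0.3 was below that of all probes, which include the interval probes. The NM_ shares were 33.0%, 12.3%, 3.53% and 1.21%. In the 2 brighter classes the interval share rests on few probes. The medians of the interval probes in the 4 classes were -0.028, 0.016, 0.031 and 0.029, and those of the NM_ probes -0.049, -0.0030, -0.00040 and -0.0036. The interval median lay above the NM_ median in each class by a small amount, and with 1 array per group the spread of this gap between cultures is not known.

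**Figure D3:**
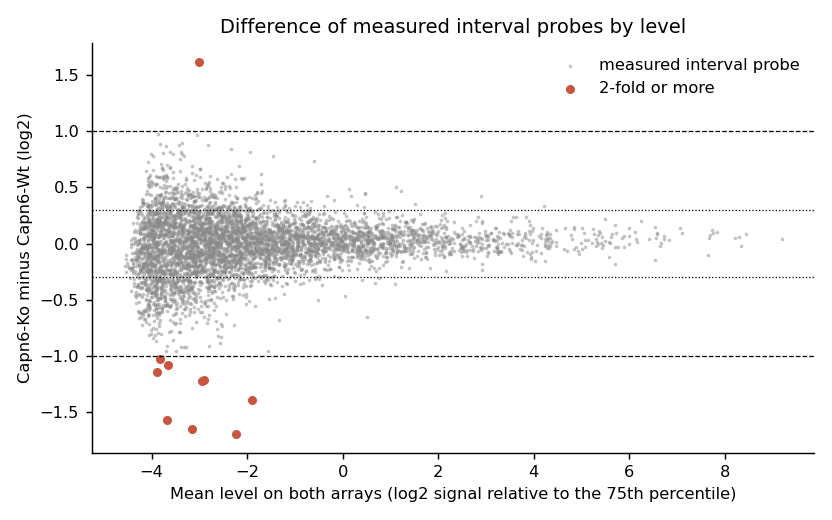
Difference between Capn6-Ko and Capn6-Wt (vertical axis, log2) against mean level (horizontal axis, log2 signal relative to the 75th percentile) for the 5237 measured interval probes. Dotted lines mark a difference of 0.3 and dashed lines 2-fold, and the 10 probes past 2-fold, 9 of them lower, all lie at low levels.

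The 10 interval probes past 2-fold were single dim probes. Their signals did not exceed 163 in Capn6-Wt or 81.3 in Capn6-Ko. The largest difference lay on the F strand of chr1:92412246-92423471, at 144 in Capn6-Wt and 43.9 in Capn6-Ko, -1.69 ± 0.17. None of the other 4 F probes of that interval was measured, with signals up to 20.9 and 18.9. Its 1 measured R probe, at 177 and 160, differed by -0.12.

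The second, on the F strand of chr3:30032959-30079659, gave 74.5 and 23.4 (-1.65 ± 0.33) with 3 unmeasured neighbours. The third, on the R strand of chr1:138442536-138521080, gave 50.3 and 16.7 (-1.57 ± 0.33) with 2. For both of these the Capn6-Ko signal was close to 14.0, the lowest signal called well above background on that array. On the F strand of chr19:53517903-53540753 the probe gave 163 and 61.3 (-1.39 ± 0.17), and here 3 more F probes were measured, all lower by smaller amounts, from -0.33 to -0.10. The R strand of the same interval had 10 of 10 probes measured and 10 of 10 lower in Capn6-Ko, with signals of 71.8 to 408 in Capn6-Wt and 62.2 to 389 in Capn6-Ko and a mean of -0.16 ± 0.11 (n = 10). With each array centred on its median 7 of these 10 were lower and 3 higher.

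Another 5 lower probes were between 2.04- and 2.34-fold. They were in chr16:40470294-40470935 (F, 74.5 in Capn6-Wt and 31.5 in Capn6-Ko), chr9:56910620-56919495 (F, 76.3 and 32.6), chr11:69184157-69201732 (F, 37.9 and 17.0), chr5:122047900-122065325 (F, 43.0 and 20.1) and chr7:112934153-112943178 (R, 37.9 and 18.4). Each had a spot error of 0.33 on the log2 scale. Where a neighbouring probe of the same strand was measured it did not share the change: in chr11:69184157-69201732 it differed by 0.11, and in chr7:112934153-112943178 by -0.11 and 0.05.

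The one higher probe, on the R strand of chr3:51138643-51146693, gave 26.8 in Capn6-Wt and 81.3 in Capn6-Ko (1.62 ± 0.33). It was the only R probe, and the F probe gave 161 and 158 (-0.0033). In all, 6 of the 10 had other probes on the strand but none measured, 3 had at least 1 measured and 1 had none. Another 5 interval probes lay between 1.9-fold and 2-fold.

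In the brighter part of the interval probes, above their median level, no rise reached 2-fold, but the largest fall of all (-1.69) lay there. The highest was 0.84 ± 0.17 on the F strand of chr12:4581550-4599600 (55.9 and 98.9), whose 3 measured probes were all higher (0.44 ± 0.35, n = 3). Next were chr2:104657075-104658840 (F, 0.81, 74.3 and 129), chr2:119412770-119435110 (R, 0.78, 104 and 176), chr11:97457180-97487074 (R, 0.73, 191 and 314), chr2:155269145-155303251 (F, 0.69, 66.2 and 106) and chr3:93582250-93592950 (F, 0.62, 92.8 and 141). Every measured probe of the strand was higher in chr12:4581550-4599600, chr2:104657075-104658840 and chr2:155269145-155303251 (there 3 of 4 with normexp), and 4 of 5 in chr2:119412770-119435110. In chr11:97457180-97487074 the other measured R probe was lower, by -0.09, and in chr3:93582250-93592950 no other F probe was measured.

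The 2 lowest of this brighter part were probes already given, in chr1:92412246-92423471 (F, -1.69) and chr19:53517903-53540753 (F, -1.39). After them came chr8:119732348-119749198 (R, -0.95, 176 and 89.9), chr18:38478632-38482159 (F, -0.72, 99.7 and 59.7), chr2:104702675-104736600 (F, -0.68, 189 and 116) and chr4:131905739-131910814 (R, -0.65 ± 0.09, 671 and 423). The last was by signal the brightest of the 12 and the only R probe of its interval. Its 2 F probes went apart, at -0.27 and 0.42. On the F strand of chr18:38478632-38482159 the other 2 probes were higher (1 of them with normexp).

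Averaging the probes of a strand left little. Over the 757 interval strands with at least 3 measured probes the mean difference had a median of 0.021 and a standard deviation of 0.14, and ran from -0.63 to 0.49. No strand mean reached 2-fold, and 12 were higher and 22 lower by 0.3 or more (16 and 14 with quantile normalization, 27 and 12 with each array centred on its median, and 1 and 0 with the normexp correction). Among 402 NM_ transcripts with at least 3 measured probes, 4 means were higher and 7 lower by 0.3 or more, without matching for signal. Every measured interval probe was higher in 141 strands and lower in 79, with no matching count for NM_ transcripts. With each array centred on its median these were 242 and 39.

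In 6 of these interval strands every measured probe differed by 0.3 or more in one direction, 4 lower and 2 higher. Among 402 NM_ transcripts with at least 3 measured probes the same held for 3 lower and 1 higher. The 6 were picked after their values were seen. With the normexp correction all their measured probes kept their direction, but the mean of only 1 strand, on chromosome X, still reached 0.3 (0.39). The other means were then -0.26 on chromosome 15, -0.17 on chromosome 18, -0.28 on chromosome 8, -0.14 on chromosome 3 and 0.22 on chromosome 1. With each array centred on its median all 6 means stayed past 0.3, and in 4 strands every measured probe did. The clearest fall was on the R strand of chr15:32167516-32174427, an interval of 6912 bases. Its 5 probes gave 37.2, 69.7, 79.1, 45.5 and 86.1 in Capn6-Wt and 24.9, 53.4, 46.1, 29.3 and 47.9 in Capn6-Ko, a mean of -0.63 ± 0.18 (n = 5). The signals of the 2 arrays overlapped across probes, but each of the 5 probes was lower in Capn6-Ko.

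The overlapping probes showed the same pattern by strand. None of the 4 F probes of chr15:32167516-32174427 was measured, with signals up to 12.2. A second entry for nearly the same bases, chr15:32167516-32174417, had 2 of 5 R probes measured, with a mean of -0.60 ± 0.15 (n = 2), and 0 of 5 F probes.

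The R strand of chr18:61809278-61825191 had 3 of 3 probes lower, at 47.0, 29.9 and 39.6 in Capn6-Wt and 35.3, 20.2 and 22.7 in Capn6-Ko (-0.58 ± 0.20, n = 3). The R strands of 2 neighbouring intervals, chr18:61798876-61807452 and chr18:61781410-61788685, each had 1 of 5 probes measured, with differences of -0.46 and -0.82. Their F strands had 3 and 2 measured probes with means of 0.04 and 0.07. In this stretch of chromosome 18 every measured R probe was lower, and the F means were slightly above 0.

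On the F strand of chr8:124697835-124699013 the 3 probes gave 177, 111 and 240 in Capn6-Wt and 135, 75.6 and 186 in Capn6-Ko (-0.42 ± 0.10, n = 3). On the F strand of chr3:38320928-38341869, 3 of 4 probes were measured, at 70.2, 21.9 and 31.7 in Capn6-Wt and 54.8, 16.7 and 23.5 in Capn6-Ko (-0.37 ± 0.04, n = 3), while its R probe, at 250 and 240, differed by -0.04. Stromal and smooth muscle marker genes moved the same way: 8 of the 9 measured were lower in Capn6-Ko, with differences from -0.61 to 0.17 and signals of 24.5 to 27769 in Capn6-Wt and 27.3 to 19229 in Capn6-Ko, and Lum was not measured. Their part in these differences was not tested. In a pooled culture fewer cells of a type and less RNA per cell cannot be told apart.

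Of the 2 strands that were higher at every probe, the first was the R strand of chrX:18734106-18744367. Its 3 probes gave 683, 445 and 445 in Capn6-Wt and 957, 597 and 601 in Capn6-Ko, a mean of 0.46 ± 0.03 (n = 3) against a spot error of 0.093 for each. It was the brightest of the 6, and the differences of its probes had the smallest spread. The next interval along the chromosome, chrX:18744367-18853992, had 1 of 4 F probes at 25394 and 26901 (0.10) and 1 of 4 R probes at 42.3 and 25.4 (-0.72).

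The second was the R strand of chr1:137503023-137625604, 122582 bases long. Its 3 probes gave 53.5, 209 and 95.9 in Capn6-Wt and 65.9, 257 and 123 in Capn6-Ko, with a mean of 0.34 ± 0.04 (n = 3). A second entry that overlaps it, chr1:137482591-137625604, had 2 R probes that went apart, at -0.21 and 0.42, so the rise was not shared by all R probes in that stretch.

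**Figure D4:**
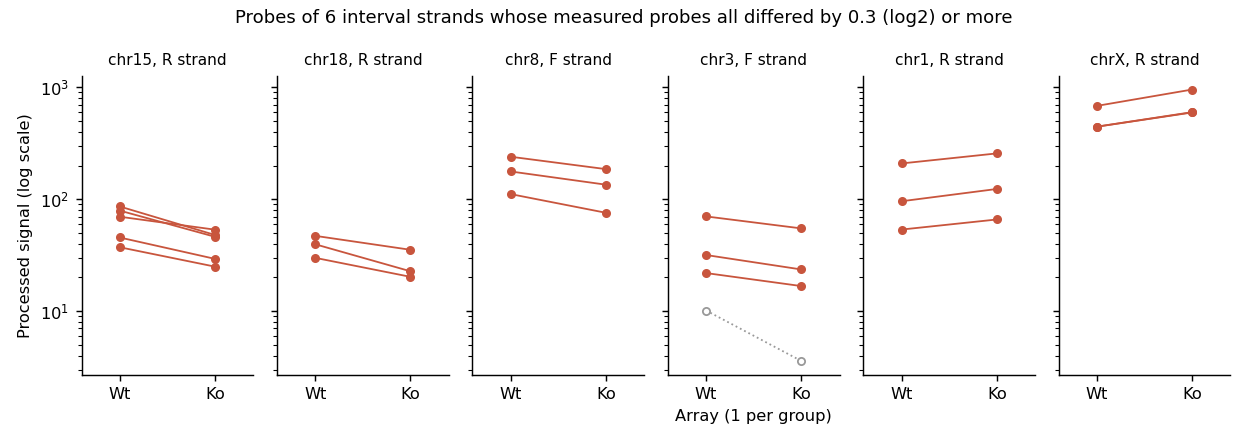
Processed signal (vertical axis, log scale) on the Capn6-Wt and Capn6-Ko arrays (horizontal axis) of each probe of the 6 interval strands whose measured probes all differed by 0.3 (log2) or more; each line is 1 probe, and the dotted grey line is a probe that was not measured. All measured probes fall in the first 4 panels and rise in the last 2, of chromosomes 1 and X; in the chromosome X panel the signals go from between 445 and 683 to between 597 and 957.

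Of the 8 interval strands with 10 of 10 probes measured, 4 are described next. Their means stayed below 0.3 in size. The strands just described were picked for having every measured probe past 0.3, so the sizes cannot be compared. The spread over probes, 0.07 to 0.14, was not steadier. It lay within that of the strands just described, 0.03 (chromosome X) to 0.20 (chromosome 18). On the F strand of chr17:26911397-26917047 all 10 probes were higher in Capn6-Ko, from 341 to 1540 in Capn6-Wt and 374 to 1783 in Capn6-Ko, with differences of 0.11 to 0.35 and a mean of 0.22 ± 0.07 (n = 10). All 10 remained higher under each scaling tried. Of its 10 R probes 4 were measured, at 31.7 to 39.2 in Capn6-Wt, with a mean of -0.15 ± 0.17 (n = 4).

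The F strand of chr4:129497990-129515290 had a mean of 0.14 ± 0.09 (n = 10), with 9 of 10 higher by 0.079 or more and the last at 0.00027. The F strand of chr8:119732348-119749198 was level, at -0.02 ± 0.08 (n = 10), over signals of 30.9 to 1240 in Capn6-Wt. The R strand of chr6:116092274-116144199 had 8 of 10 probes higher and a mean of 0.10 ± 0.14 (n = 10).

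Differences of probes on the same strand of an interval went together less than those of probes for one messenger RNA. In the brighter part of the probes the Pearson correlation of differences was 0.28 over the 2199 same-strand pairs, 0.12 over the 989 opposite-strand pairs and 0.37 over the 3230 NM_ pairs. Over all measured probes the median spot error was 0.17 for interval probes and 0.093 for NM_ probes. The part of this error in the gap between the correlations was not tested. The median standard deviation of the difference between probes of a strand was 0.16, and the median spot error of those probes was 0.20.

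Some interval RNA was seen on 1 array only. A probe not well above background on one array has only a bound there. It was taken as the higher of the probe's own signal and the lowest signal called well above background on that array. Some spots above that lowest signal were not called, such as 1 at 20.9 in Capn6-Wt. Each "at least" below therefore holds for this bound and is not a guaranteed minimum. Of the 326 probes well above background on Capn6-Wt only, 43 were at least 2-fold higher there by this bound, and of the 575 on Capn6-Ko only, 13 were. These counts were not set beside those of other kinds of probe. The lowest signal called was 16.6 in Capn6-Wt and 14.0 in Capn6-Ko, which makes the bound easier to pass toward Capn6-Wt. The counts in the 2 directions are therefore not directly comparable, and the part of this gap in them was not tested. The largest bound was on the F strand of chr13:104591573-104599048, at 343 in Capn6-Wt and 5.03 in Capn6-Ko, at least 24.2-fold higher in Capn6-Wt. None of the other 4 F probes of that interval was well above background on both arrays, and its 3 measured R probes differed by 0.10 ± 0.05 (n = 3).

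The others toward Capn6-Wt were chr8:18903599-18904143 (F, 149 in Capn6-Wt and 6.19 in Capn6-Ko, at least 10.5-fold) and chr5:113594167-113645342 (F, 109 and 3.28, at least 7.70-fold). Toward Capn6-Ko they were chr8:60132300-60146830 (F, 17.3 and 131, at least 7.64-fold), chr12:77544397-77564122 (R, 4.02 and 95.4, at least 5.82-fold) and chr18:35976163-35976530 (F, 5.09 and 77.8, at least 4.74-fold). Where these intervals had measured probes on the same strand, they did not share a change of that size. In chr5:113594167-113645342 the 2 measured F probes were also lower in Capn6-Ko, but at -0.43 and -0.27. In chr12:77544397-77564122 the 1 measured R probe, at 1617 and 1567, differed by -0.03, and in chr8:60132300-60146830 the 3 measured F probes had a mean of 0.26 ± 0.33 (n = 3).

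The last comparison was by place and length. On the 20 chromosomes the share of interval probes measured ran from 23.2% on chromosome 9 to 40.5% on chromosome 17. The median difference ran from -0.043 on chromosome 18 (187 measured probes) to 0.036 on chromosome 4 (368), and was above 0 on 14 chromosomes and below 0 on 6. Every one of these medians was small beside the spread over the probes of its chromosome. Only chromosomes 3, 10, 15, 17, 18 and 19 were below 0.

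With the scaling used here, more probes were lower than higher past 0.3 on 16 chromosomes, more were higher on chromosomes 4, 11 and 13, and on chromosome X they were equal (20 each). The share past 0.3 in either direction was highest on chromosome 18 (25.7%, 13 higher and 35 lower) and on chromosome X (23.8%), and lowest on chromosome 16 (11.5%, 3 higher and 15 lower). On chromosome 18 the median level of the measured probes was -2.81, against -2.44 over all measured interval probes, so its probes were also dimmer. Chromosome 3 was as dim, at -2.81, with 14 higher and 44 lower and a median of -0.014.

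By length the differences were alike. The interval probes were put into 3 classes of interval length with about equal numbers of probes, 62 to 7297, 7304 to 22751 and 22761 to 7128487 bases. The shares measured were 31.5%, 34.2% and 31.4%, and the median differences 0.0068, 0.016 and -0.00051. Past 0.3 were 136 higher and 196 lower, 155 and 186, and 120 and 184. Across the 5237 measured probes the Spearman correlation of length with difference was -0.0067, and with level 0.026, as descriptions over probes of overlapping intervals.

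**Figure D5:**
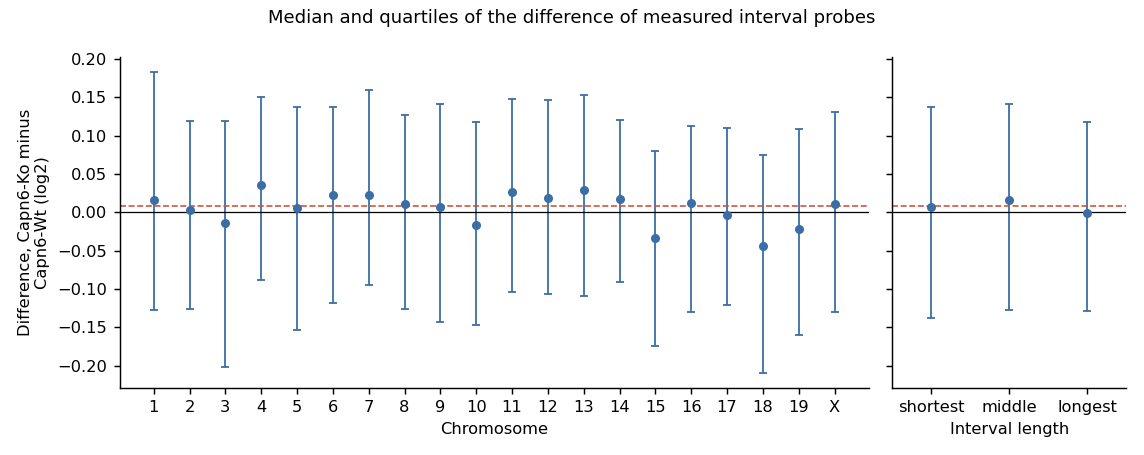
Median difference between Capn6-Ko and Capn6-Wt (points, log2) of the measured interval probes by chromosome and by class of interval length, with bars from the lower to the upper quartile over probes; the dashed line is the median over all, 0.0079. Every bar crosses 0, and the medians stay between -0.043 and 0.036.

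The extremes of length gave no exception. The shortest measured interval, chr5:113772057-113772146 (90 bases, F), had 1 probe at signals of 25.3 (Capn6-Wt) and 24.7 (Capn6-Ko), a difference of -0.02 ± 0.33. The longest, chr3:34003359-34537330 (533972 bases, F), had 3 of 3 probes measured, at 19.7, 225 and 55.2 in Capn6-Wt and 22.1, 190 and 52.7 in Capn6-Ko, with a mean of -0.03 ± 0.20 (n = 3).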

How the data were processed

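Total RNA was labelled with Cy3 and hybridised to 2 one-colour Agilent arrays on one slide, 1 for Capn6-Wt and 1 for Capn6-Ko. Spot intensities came from Agilent Feature Extraction 10.10.1.1, run by the authors, and positions refer to mm9, per the file headers. The deposited processed intensity of each spot was background-subtracted by that software. The deposited value table holds the same intensity multiplied by 2.39 (Capn6-Wt) or 2.42 (Capn6-Ko), with column medians of 53.0 and 50.7. Not given in the sources used here is how that factor was set, and the table served as an alternative.

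Here log2 of the processed signal was taken, the array's 75th percentile over non-control spots was subtracted, outlier spots were dropped and spots of a probe were averaged (Python 3.11.15, numpy 2.4.6, pandas 2.3.3). Quantile and normexp alternatives used limma 3.58.1 in R 4.3.3. With 1 array per group no residual spread between samples can be estimated, so no test was run. Calls are counts past 2-fold and past 0.3 on the log2 scale among measured probes, the latter a limit chosen after the values were seen. The steps were tested on simulated data with large changes in probes well above background and the same small noise at every signal. That test does not cover the larger error of dim probes or the limit of 0.3. The number of arrays limits the precision. Other scalings, filters, detection calls and background corrections were tried.

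Named probes were the 8 brightest, the 6 highest and 6 lowest differences above the median level of measured interval probes, and all past 2-fold. Also named were the 3 largest bounds each way and the 6 intervals brightest on the dimmer strand. The shortest and longest measured intervals were named too, as were 4 of the 8 strands with 10 of 10 probes measured. The members and the lists were chosen with earlier results of these data known. Marker symbols came from RefSeq accessions. Probe sequences and mm9 gene positions were not used here.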

Additional observations from a re-analysis of the deposited data

Results flagged for a closer look

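The array also held 13 probes for 3 intervals named without a strand letter, which fall outside the interval probes described above. One of them gave a signal in data outside the main comparison. All 5 probes of chr17:12941161-12944859 were well above background on both arrays. Their median signal was 677 in Capn6-Wt and 673 in Capn6-Ko, against negative control medians of 3.87 and 3.36, and their mean difference was -0.06 ± 0.10 (n = 5). The 5 probes of chr6:52032838-52033444 and the 3 of chr3:34856791-34869544 were not well above background on either array.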

How the results depend on the processing

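The share detected, the level gap to NM_ probes and the contrasts by chromosome and length kept their direction under every alternative that gave a value. For several alternatives this was fixed in advance. Rescaling a whole array shifts all its probes alike, so it cannot change these contrasts or the level gap. Detection calls do not depend on scaling, and no interval spot carried an outlier mark that keeping outlier spots could undo. The sign of the median difference over interval probes, and whether more interval probes or strand means were higher or lower past 0.3, followed the scaling. The median was 0.025 with quantile normalization (2 probes at least 2-fold higher), 0.073 with each array centred on its median (3 at least 2-fold higher, 661 higher by 0.3 or more), and -0.0058 against the 75th percentile of probes detected on both arrays. Without a filter on dim probes it was -0.17, with 557 probes at least 2-fold higher, 937 lower, 2646 higher by 0.3 or more on the log2 scale and 3297 lower. The median interval level was then 3.55 below that of NM_ probes (-3.55, against -3.28 as reported). Detection and strand shares need a filter and have no value there. With only probes above the median level of all measured probes, 6.001% of interval probes remained, the level gap was -1.23, a single strand was detected in 23.8% of the intervals with both, and the median difference was 0.030. No probe (0) was then 2-fold higher or lower, 11 were higher and 6 lower by 0.3 or more. With detection by the software's weaker call of a positive and significant spot, 60.6% were detected, the level gap was -3.85, single strands fell to 13.2%, the median was -0.0050, and 257 and 464 were 2-fold higher and lower, and 1755 and 2282 by 0.3 or more. With normexp on median signals, chosen after seeing the data, the level gap was -2.42, 0 probes were 2-fold in either direction, and 36 and 40 were higher and lower by 0.3 or more. When most probes of a strand had to be measured, 32.2% had a single strand. The cause of these moves was not tested. Normexp on mean signals was not run, since those signals are not in the files used. The contrast between chromosomes 4 and 18 (0.079) and between the longest and shortest class of length (-0.0074) stayed within the 95% intervals of their medians. Those intervals treat overlapping probes as independent. Chromosomes 4 and 18 were the extremes in these same data, so the kept direction of their contrast was partly set in advance. Of 720 recomputed values of named probes and strands, 672 moved by less than their error and 48 moved by more. Without normexp only 4 moved by more, and the largest move was 0.075. Most of these alternatives shift every probe alike or leave interval probes unchanged, so much of this was fixed in advance. Shifts that small could not reverse the values called in the report. Of these values (probes past 2-fold, and the 6 strands with every probe past 0.3), 0 changed sign. Small differences did: 17 of the 120 probes and strands, none beyond 0.059 in size as reported, took the opposite sign under at least 1 alternative. So did the means of 4 of 36 strands with 3 or more measured probes, none beyond 0.044, 4 of them with each array centred on its median. No paired analysis was possible because each group has 1 array and the labels give no replicate numbers, and for the same reason no array could be left out. Spot errors of up to 0.33 (log2) at the lowest signals limit what can be said of dim probes.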
